A study of Mus musculus with 18 samples.

Results

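The 12 lung tumours of an 18-array series are described here by how much RNA of the imprinted noncoding gene Meg3 they carried, chosen by its measured level: 8 had high Meg3 and 4 low. The mice were B6C3F1/N hybrids, 5 to 6 weeks old when an inhalation study of cobalt metal dust began. Air concentrations ran from 0 to 5 mg/m3, breathed for 6 hours a day on 5 days a week for up to 105 weeks. The arrays held lung of vehicle-treated mice (control lung), tumours from mice without cobalt (spontaneous tumours) and tumours of mice that breathed cobalt (cobalt tumours), 6 arrays each. Tumours were dissected from the lung around them, and whole-tumour RNA was amplified for a 3′ expression array. No label gives the sex, the dose or the mouse behind an array, so the p-values reflect only how much these arrays vary, which may in part be technical. Control 6 is described as a spontaneous tumour in 1 free-text label but as a control in the other 3, and was used as a control.

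The division rests on a measured value, not on a label, and is not a group of the study. Of the probe sets for Meg3, the 1 with the highest mean over the 18 arrays was taken, and a tumour counted as high at a log2 level of 11 or more. Spontaneous tumours 1, 3, 4 and 5 and cobalt tumours 1, 3, 5 and 6 were high, and spontaneous tumours 2 and 6 and cobalt tumours 2 and 4 were low. Each tumour group therefore held 4 high and 2 low tumours, and high was compared with low with the tumour group as a covariate. Meg3 itself, its neighbours Rian and Mirg, and Dlk1 were set aside from every test, because Meg3 chose the tumours and the others belong to the same locus.

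Meg3, Rian and Mirg are long noncoding RNAs made from the maternal chromosome at the Dlk1-Meg3 locus, and the paternal chromosome makes the growth-related membrane protein Dlk1 and its neighbour Rtl1. Which parental copy is active depends on DNA methylation laid down in the germ line between Dlk1 and Meg3 and then at the Meg3 promoter. MEG3 RNA is often lost in human tumours and is known for effects on p53 and Polycomb complexes, whereas adult lung makes little of either side of the locus. Rian holds clusters of small nucleolar RNAs, and Mirg is the host of a large microRNA cluster.

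The promoters of the maternal and of the paternal gene at this locus are shown because the RNAs that follow are read from them. Both are windows of 300 bases around the annotated start from RefSeq on build GRCm38.p6, plus strand. The Meg3 window, chr12:109540746-109541045, is the first of 2 annotated Meg3 starts, and the Dlk1 window is chr12:109452573-109452872. Capitals mark matches to the cyclic AMP response element TGACGTCA in Meg3 and to its shorter core TGACG in Dlk1, searched on both strands. The core lies within the full element.
Meg3: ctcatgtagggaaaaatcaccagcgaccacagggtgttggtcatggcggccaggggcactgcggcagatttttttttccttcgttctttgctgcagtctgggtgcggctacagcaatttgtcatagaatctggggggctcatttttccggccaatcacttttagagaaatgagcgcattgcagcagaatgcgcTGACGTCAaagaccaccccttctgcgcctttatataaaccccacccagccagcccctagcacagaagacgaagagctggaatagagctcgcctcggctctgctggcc
Dlk1: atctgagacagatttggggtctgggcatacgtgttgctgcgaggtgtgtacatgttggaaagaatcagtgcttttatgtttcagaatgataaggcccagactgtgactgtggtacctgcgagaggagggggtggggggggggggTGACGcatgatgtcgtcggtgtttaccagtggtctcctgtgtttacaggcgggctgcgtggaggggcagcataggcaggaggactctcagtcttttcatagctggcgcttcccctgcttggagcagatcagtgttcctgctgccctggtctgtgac

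The full element occurs in 1.79% of 32851 RefSeq promoter windows of this length and the core in 20.8%. The Meg3 window holds 13 CpG dinucleotides and the Dlk1 window 9. A match describes letters only, and no binding or methylation was measured on these arrays.

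Meg3 RNA stood at 8.0 to 8.46 on the log2 scale in the 6 control lungs. In the high spontaneous tumours it read 13.46, 13.25 and 12.47 in tumours 3, 4 and 5 and about 14 in tumour 1, and in the high cobalt tumours 13.51, 13.58, 13.46 and 12.78 in tumours 1, 3, 5 and 6. The low tumours read 7.67 and 10.65 in spontaneous tumours 2 and 6 and 8.61 and 9.35 in cobalt tumours 2 and 4. High tumours thus averaged 13.31 ± 0.48 (SD, n = 8), low tumours 9.07 ± 1.26 (SD, n = 4) and controls 8.29 ± 0.18 (SD, n = 6). The tumour nearest above the threshold was spontaneous tumour 5 at 12.47 and the nearest below was spontaneous tumour 6 at 10.65. All of these are a description, since this level made the groups. Low does not mean lower than normal lung at this probe set: 3 of the 4 low tumours lay above every control, and only spontaneous tumour 2 lay below them. For cobalt tumour 2 this varied between Meg3 probe sets. It read 8.08 against 7.43 to 7.94 in controls at the second brightest, and 6.48 against 6.82 to 7.37 at another.

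The other maternal RNAs followed the same order, again as a description. Rian read 9.46 to 12.12 in the high tumours, and 5.54, 8.0, 7.87 and 9.64 in spontaneous tumours 2 and 6 and cobalt tumours 2 and 4. Cobalt tumour 4, the low tumour with the most Rian, overlapped cobalt tumour 6, the high tumour with the least. Mirg read 8.52 to 11.02 in the high tumours, and 5.44, 6.82, 6.87 and 7.68 in the same 4 low tumours, with no overlap. Control lung averaged 5.48 ± 0.30 (SD, n = 6) for Rian and 5.76 ± 0.39 (SD, n = 6) for Mirg. Every high tumour stood above every low tumour at 10 of the 11 Meg3 probe sets, at 3 of the 4 for Rian and at 2 of the 2 for Mirg.

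Dlk1, the protein-coding gene of the paternal side, did not keep to that division. It read 12.21, 10.80, 13.43 and 6.5 in high spontaneous tumours 1, 3, 4 and 5 and 13.85, 12.97, 13.72 and 10.06 in high cobalt tumours 1, 3, 5 and 6. In the low tumours it read 6.27 and 11.93 in spontaneous tumours 2 and 6 and 6.15 and 7.62 in cobalt tumours 2 and 4. Control lung averaged 6.17 ± 0.22 (SD, n = 6). Spontaneous tumour 5 had high Meg3 with Dlk1 inside the control range, and spontaneous tumour 6 had low Meg3 with Dlk1 well above it. At the dimmer of the 2 Dlk1 probe sets, spontaneous tumour 6 read 5.78, inside the control range of 5.38 to 5.80, and the high tumours read 5.34 to 7.98. Its raised Dlk1 was thus seen at 1 probe set only. Neither of the 2 Dlk1 probe sets separated all high from all low tumours.

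**Figure D1:**
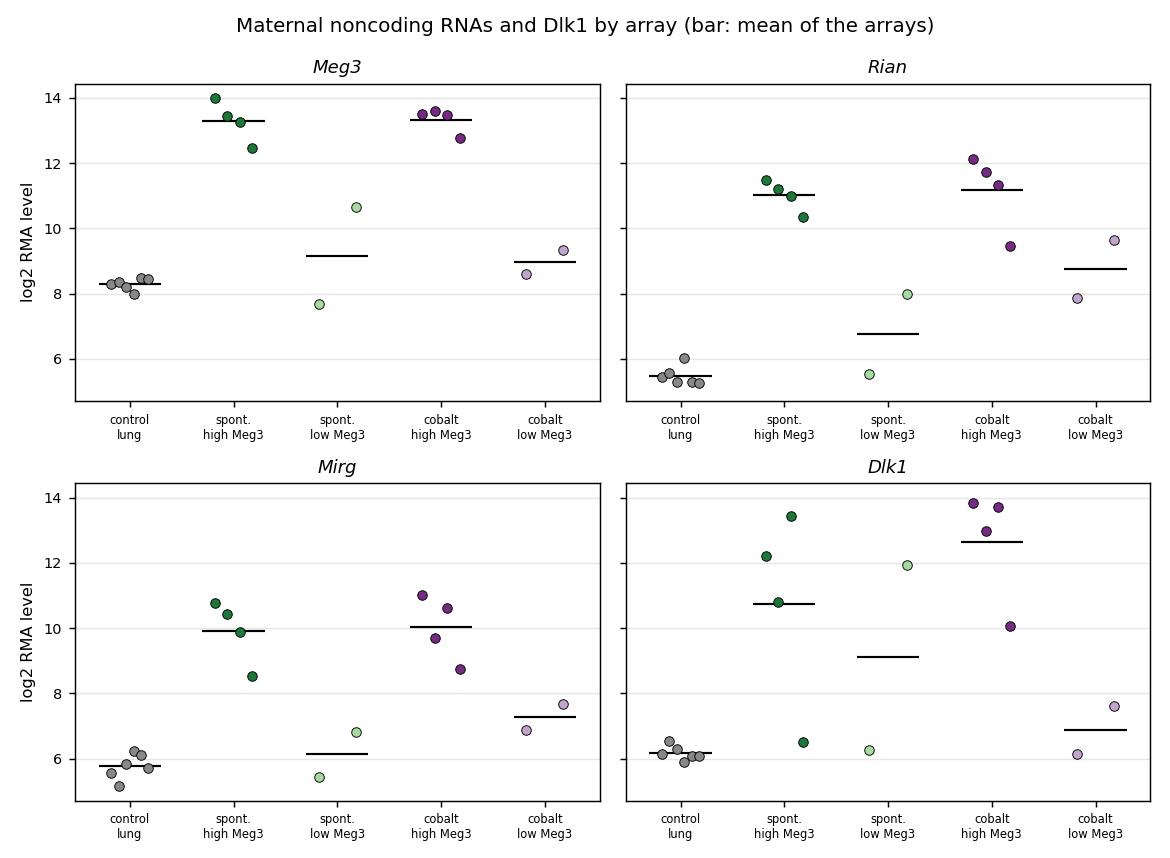
Levels of Meg3, Rian, Mirg and Dlk1 (log2 RMA, vertical axis) in each array, by control lung and by high- and low-Meg3 tumours of both tumour groups; bars are means. The maternal RNAs Meg3 and Mirg separate all high from all low tumours, Rian does so but for cobalt tumours 4 and 6, and Dlk1 is at 6.5 in 1 high and 11.93 in 1 low tumour.

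The 6 other measured genes listed for the neighbourhood of the locus included Wars, a tryptophan tRNA ligase, Yy1, a zinc-finger transcription factor, and Dync1h1, the heavy chain of cytoplasmic dynein. None of the 6 passed the test, and at an unadjusted p under 0.05 the count was also 0 of 6. The median difference between high and low tumours was -0.14 on the log2 scale, against -0.01 over all genes tested. Dync1h1 differed by -0.12 ± 0.17 (SE) and Wars by -0.46 ± 0.28 (SE). Rtl1 was not analysed here.

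Some features of the arrays bear on everything that follows. Spontaneous tumours 2 and 6, both low, lay far from the rest on the leading principal component, with 27.5% of the variance: they scored -58.7 and -53.5, and the other 10 tumours -25.6 to 26.0. Y-linked RNA was present in 4 of the 8 high and 2 of the 4 low tumours, with Xist high in the rest. The tumours with it were high spontaneous tumours 1, 3 and 5, high cobalt tumour 1, low spontaneous tumour 2 and low cobalt tumour 4. Among high tumours it was thus uneven between the tumour groups. The mean level of 74 markers of endothelium, ciliated cells and pulmonary vein heart muscle, taken as a measure of normal lung in the sample, was 9.51 to 9.60 in controls, 6.49 to 8.35 in high and 6.62 to 7.17 in low tumours, and was highest in cobalt tumour 6 and spontaneous tumour 4. In whole-tumour RNA, fewer cells of a type and less RNA per cell cannot be told apart.

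Across both tumour groups, no gene outside the locus separated high from low Meg3 tumours past the threshold. Of 18189 genes tested with limma, 0 were higher and 0 lower at a Benjamini-Hochberg adjusted p under 0.05 (0% of genes each way), and the smallest adjusted p was 0.214. At an unadjusted p under 0.05 there were 2063 genes (11.3%), of which 933 (5.13%) were higher and 1130 (6.21%) lower in high-Meg3 tumours. Every high tumour lay above every low tumour for 82 genes (0.451%) and below for 91 genes (0.5%). The median standard error of a gene's difference was 0.136 log2 units. Leaving out cobalt tumour 2 gave 12 genes higher and 16 lower, leaving out cobalt tumour 5 gave 2 and 8, and leaving out spontaneous tumour 6 gave 0 and 1. Without the pair of spontaneous tumours 2 and 6 the counts stayed at 0, with 761 genes at an unadjusted p under 0.05. They also stayed at 0 with Y-linked RNA or with the normal lung marker mean as a covariate.

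The genes nearest to the threshold are given with their values, none of which passed the test. Klhl7, an adaptor of a cullin ubiquitin ligase, ran from 8.43 to 9.08 in the high tumours (median 8.82) and read 7.68 and 7.74 in low spontaneous and 8.0 and 8.13 in low cobalt tumours. All high tumours stood above all low ones, with a difference of 0.88 ± 0.14 (SE), or 1.84-fold, at a limma adjusted p of 0.214. Golm2, a Golgi membrane protein, had the largest mean difference of this set, though its groups nearly met. It read 8.56 to 10.25 in the high tumours (median 9.44) against 7.26, 7.58, 8.48 and 7.48 in the low ones. Control lung averaged 9.90 ± 0.27 (SD, n = 6), and 6 of the 8 high and all 4 low tumours lay below every control. The Golm2 difference was 1.73 ± 0.28 (SE), or 3.33-fold. Without cobalt tumour 5, whose Golm2 level was the lowest of the high tumours, its adjusted p was 0.019, and without cobalt tumour 2 it was 0.043.

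Ss18l2, related to a chromatin remodelling subunit, varied little among the low tumours. It read 9.17 to 9.56 in the high tumours (median 9.43) and 8.89, 8.89, 8.89 and 8.93 in the low ones, a difference of 0.50 ± 0.08 (SE). Kbtbd7, another ubiquitin ligase adaptor, was higher by 0.54 ± 0.09 (SE), and Tspyl5, a nucleosome assembly protein family member among the 6064 dimmest genes, by 0.68 ± 0.11 (SE). All of these had an adjusted p of 0.214.

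In the other direction the nearest was Memo1, a protein involved in cell motility. It read 8.69 to 9.26 in the high tumours (median 8.84) and 9.81, 9.56, 9.47 and 9.74 in the low ones, with control lung at 8.31 ± 0.17 (SD, n = 6). All 4 low tumours stood above all high tumours and all controls, and the difference was -0.76 ± 0.11 (SE) at an adjusted p of 0.214, or 0.021 without cobalt tumour 5 and 0.043 without cobalt tumour 2. Kctd5, a cullin adaptor, read 8.03 to 8.59 in the high tumours (median 8.42) and 9.51, 9.11, 9.07 and 8.94 in the low ones. Its difference was -0.81 ± 0.13 (SE). Mrps10, a protein of the mitochondrial ribosome, differed by -0.51 ± 0.09 (SE), the general transcription factor subunit Gtf2f1 by -0.43 ± 0.08 (SE) and the troponin subunit Tnni2 by -0.78 ± 0.14 (SE). Tnni2 had an adjusted p of 0.042 without cobalt tumour 5.

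**Figure D2:**
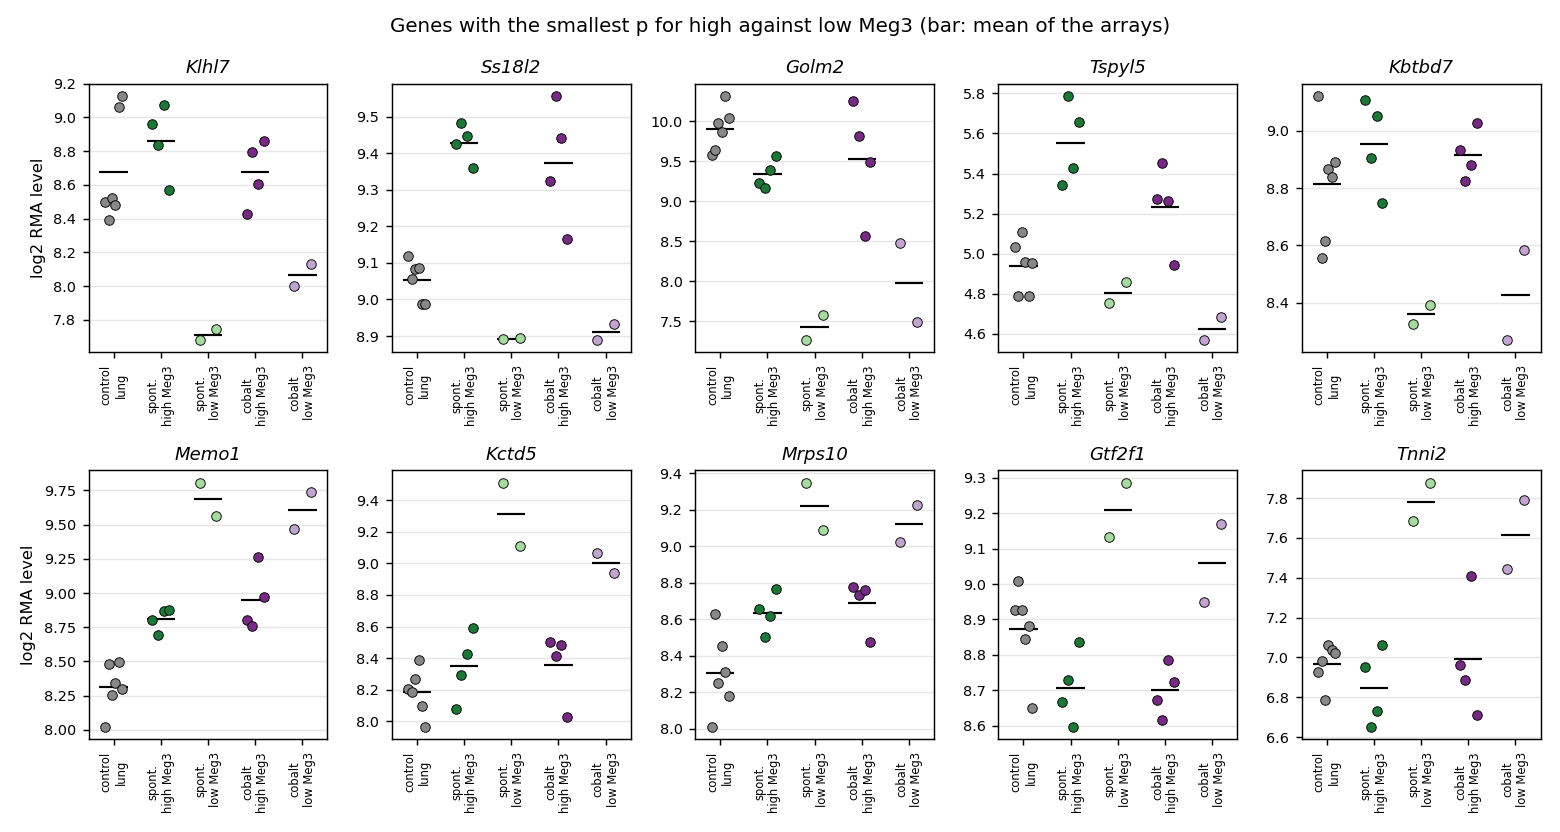
Log2 RMA levels of the 5 genes with the smallest p in each direction of the comparison of high with low Meg3 tumours, by array and group; bars are means and each panel has its own scale. In all 10 panels the 8 high and 4 low tumours do not overlap, while the adjusted p is 0.214 throughout.

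Among genes whose groups did not overlap, the widest differences were looked up after their values were seen. Pde4b, a cyclic AMP phosphodiesterase, led on the high side: 10.08 to 11.88 in the high tumours against 8.92, 9.12, 8.92 and 8.13 in the low ones, with control lung at 10.54 ± 0.24 (SD, n = 6). The difference was 1.91 ± 0.32 (SE), or 3.76-fold, at an adjusted p of 0.214, and it was present in both groups at 1.62 in spontaneous and 2.20 in cobalt tumours. The small nucleolar RNA host gene Snhg18 differed by 1.46 ± 0.26 (SE), the lipid-binding protein gene Sec14l4 by 1.38 ± 0.30 (SE), the fatty acid elongation enzyme gene Hacd3 by 0.99 ± 0.21 (SE) and the phospholipid flippase gene Atp11a by 0.96 ± 0.21 (SE).

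The widest on the low side was the protease inhibitor gene Ctla2a at -1.37 ± 0.38 (SE). Upp1, a uridine phosphorylase gene, differed by -1.22 ± 0.38 (SE) and Suox, for sulfite oxidase, by -1.14 ± 0.38 (SE). Both rested largely on 1 low tumour: Upp1 was 10.87 in spontaneous tumour 2 and 8.07 to 8.72 in the other low tumours, and Suox was 10.48 in spontaneous tumour 6 and 8.15 to 8.27 in the others. The microtubule-binding gene Eml1 (-1.11 ± 0.22, SE), the elongation factor kinase gene Eef2k (-1.07 ± 0.20, SE), the folate hydrolase gene Ggh (-0.98 ± 0.21, SE) and the laminin receptor subunit gene Itga6 (-0.92 ± 0.22, SE) were more even across the 4 low tumours. Itga6 read 12.57, 11.90, 11.45 and 11.79 there, against at most 11.37 in the high tumours. Within spontaneous tumours alone Eml1 differed by -1.58, Eef2k by -1.21 and Itga6 by -1.48, each wider than over both groups.

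Of the other imprinted genes, 44 were measured and none passed the test. At an unadjusted p under 0.05, 3 were higher and 2 lower in high-Meg3 tumours, which is 6.82% and 4.54% of the list beside 5.13% and 6.21% of all genes, and the list's median difference was 0.00. The 3 were Ube3a, a ubiquitin ligase gene (0.34 ± 0.08, SE), Kcnq1ot1, the noncoding RNA of the Kcnq1 cluster (0.86 ± 0.25, SE), and the actin-binding gene Ppp1r9a (1.04 ± 0.42, SE). Slc22a18 and Nap1l4 were the lower ones, at -0.45 ± 0.15 (SE) and -0.26 ± 0.10 (SE). Igf2, the fetal growth factor, was 6.38 to 7.35 in the high and 6.36 to 6.82 in the low tumours, a difference of 0.09 ± 0.15 (SE), and all were below the control mean of 7.66. The cell cycle inhibitor Cdkn1c differed by 0.15 ± 0.32 (SE). H19 was not analysed here.

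The zinc-finger genes Peg3 and Plagl1, both paternally expressed, varied more between tumours. Peg3 reached 11.24 in cobalt tumour 3 and 8.68 in cobalt tumour 1 and was 5.50 to 7.52 in the other 10 tumours, low ones included. Its difference between high and low tumours was 1.16 ± 0.76 (SE) at a limma adjusted p of 0.606. Plagl1 read 9.86 to 12.36 in the high tumours and 11.79 and 9.91 in the low cobalt tumours, with 8.77 and 9.06 in the low spontaneous tumours, below all others. Its difference was 1.12 ± 0.57 (SE), at an adjusted p of 0.503.

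Genes of DNA methylation and of Polycomb complexes gave few genes at an unadjusted p under 0.05 and none after adjustment. Of 22 measured genes of DNA methylation and imprint maintenance, 1 was higher and 0 lower at that level, with a median difference of 0.02, beside 5.13% higher and 6.21% lower of all genes. The 1 was Tet2, which oxidises methylcytosine, at 0.40 ± 0.16 (SE). Dnmt3a, a methyltransferase that sets imprints in the germ line, was 8.09 to 8.68 in the high and 7.99 to 8.41 in the low tumours, a difference of 0.13 ± 0.13 (SE). Of 29 Polycomb genes, 3 (10.3%) were higher (Phc3, Cbx6 and Suz12) and 2 (6.90%) lower (Phc2 and Rbbp4) at the same level, with a median of -0.11. Ezh2, the methyltransferase of Polycomb repressive complex 2, differed by -0.40 ± 0.31 (SE) at an adjusted p of 0.675.

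The p53 and Notch lists were read because MEG3 and Dlk1 are linked with these pathways in other tissues. Of 29 measured p53 pathway genes, 2 were higher (the p53 inhibitor Mdm4 and the death receptor Fas) and 5 lower at an unadjusted p under 0.05, and the median was -0.02. These are 6.90% and 17.2% of the list, beside 5.13% higher and 6.21% lower of all genes. Perp, a p53-induced membrane protein of desmosomes, had the smallest p of the 5, at -1.29 ± 0.29 (SE). Pmaip1, which encodes the death protein Noxa, differed by -1.79 ± 0.78 (SE), with 10.06 and 9.23 in low spontaneous tumours and 5.98 and 5.86 in low cobalt tumours. Trp53 was not analysed here. Of 31 Notch genes 1 was higher (3.23%) and 4 lower (12.9%), with a median of 0.00: the target Hes1 differed by -0.31 ± 0.09 (SE), and the ligands Jag1 and Jag2 by -0.57 ± 0.21 (SE) and -0.48 ± 0.14 (SE).

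Cell division genes gave no call. None of 44 cell cycle genes was past an unadjusted p of 0.05 in either direction, and the mean over the list was 6.33 to 8.0 in the high and 6.53 to 8.38 in the low tumours, with controls at 6.49 to 6.70. Mki67, a marker of dividing cells, differed by 0.08 ± 0.45 (SE) at an adjusted p of 0.97.

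Epithelial lists were the ones furthest from 0. Of 22 measured markers of alveolar type 2 cells, the surfactant-making cells of the alveolus, 15 were higher and 0 lower in high-Meg3 tumours at an unadjusted p under 0.05, 68.2% of the list beside 5.13% of all genes, and the median difference was 0.75. None passed after adjustment over all genes. Il33, an alarmin cytokine gene, was at 1.5 ± 0.29 (SE), the protease gene Napsa at 1.24 ± 0.30 (SE) and the surfactant gene Sftpc at 0.42 ± 0.12 (SE). Sftpc lay near the top of the array's range, 15.12 to 15.26 in the high tumours, with 14.27 and 14.70 in low spontaneous and 15.13 and 14.99 in low cobalt tumours. The median over the list was 1.53 within spontaneous tumours and 0.03 within cobalt tumours. By tumour, the mean over the list was 13.04 to 13.31 in high and 11.83 and 11.61 in low spontaneous tumours, against 12.70 to 12.96 in high and 12.82 and 12.55 in low cobalt tumours.

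A list of epithelial genes linked with injury, mostly keratins and surface proteins, ran the other way. Of its 25 measured members 0 were higher and 15 lower in high-Meg3 tumours at an unadjusted p under 0.05 (60% beside 6.21% of all genes), with a median of -1.04, and none passed after adjustment. The surface protein gene Msln differed by -3.41 ± 0.95 (SE), the calcium-binding gene S100a6 by -1.96 ± 0.57 (SE), and the keratins Krt19, Krt7, Krt18 and Krt8 by -1.63 ± 0.49, -1.52 ± 0.48, -1.15 ± 0.34 and -1.04 ± 0.32 (SE). Krt7 read 13.86 and 12.83 in low spontaneous tumours and 11.90 and 13.43 in low cobalt tumours, while the high tumours ran from 10.82 to 13.37. The high end of that range was cobalt tumour 5, whose mean over the list, 10.97, was close to that of low cobalt tumour 4, 11.02. The other 7 high tumours had list means of 9.63 to 10.09 and the low ones 11.60, 11.14, 10.24 and 11.02. The median was -1.46 within spontaneous and -0.29 within cobalt tumours. Msln and Krt19 also mark the mesothelium that covers the lung, where 4 of 14 markers (Wt1, Msln, Krt19 and Bnc1) were lower at the same level.

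Genes of hypoxia and glycolysis were 13 of 30 lower (43.3%) and 1 higher (3.33%) at an unadjusted p under 0.05, beside 6.21% lower and 5.13% higher of all genes, with a median of -0.34 (-0.42 within spontaneous and -0.25 within cobalt tumours). The phosphofructokinase genes Pfkp and Pfkl differed by -0.97 ± 0.25 (SE) and -0.80 ± 0.21 (SE), the oxygen sensor gene Egln3 by -1.48 ± 0.40 (SE) and the glucose transporter gene Slc2a1 by -1.29 ± 0.40 (SE). Pfkp read 10.20, 10.57, 9.49 and 9.61 in the low tumours and 8.20 to 9.54 in the high ones, so only cobalt tumour 5 among the high tumours reached into the low range. Lipid and sterol synthesis went the other way: 5 of 27 were higher (18.5%) and 1 lower (3.70%), among them the fatty acid synthesis genes Fasn (0.64 ± 0.18, SE) and Acaca (0.77 ± 0.21, SE), with a median of 0.17. Of 24 genes of MAPK output 2 were higher and 6 lower (25.0%), of 34 NRF2 targets 1 and 6 (17.6% lower), and of 28 TGF-beta genes 0 and 5 (17.9% lower), at that same level.

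Counts for other cell types at an unadjusted p under 0.05 stand beside 5.13% higher and 6.21% lower of all genes. Of 18 alveolar macrophage markers 5 were higher (27.8%) and 2 lower (11.1%), with a median of 0.57. The scavenger receptor gene Marco differed by 1.62 ± 0.73 (SE) and the chitinase-like gene Chil3 by 1.18 ± 0.49 (SE). Club cell markers, of the airway lining, were 4 of 21 higher (19%) and 1 lower, with a median of 0.80 that was -0.01 within spontaneous and 1.27 within cobalt tumours. The club cell secretory gene Scgb1a1 was 9.97 in high cobalt tumour 1 and 10.27 in low cobalt tumour 4 and 12.62 to 14.97 in the other tumours, a difference of 0.48 ± 0.97 (SE). None of 27 T and NK cell markers, 1 of 29 endothelial markers and 1 of 20 alveolar type 1 markers was past an unadjusted p of 0.05. Of 20 markers of pulmonary vein heart muscle 3 were higher (15%) and 0 lower, of 27 fibroblast and matrix markers 0 and 2 (7.41% lower), of 22 neutrophil and mast cell markers 1 and 3 (13.6% lower), and of 28 genes of the interferon response and antigen presentation 2 and 2 (7.14% each), close to the shares of all genes. Ager, of alveolar type 1 cells, differed by 0.54 ± 0.32 (SE), Nkx2-1, the lung lineage factor, by 0.52 ± 0.28 (SE), the tight junction gene Cldn2 by -0.89 ± 0.74 (SE) and the gastric-type gene Gkn2 by -0.95 ± 1.05 (SE). None of these 4 passed the test.

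**Figure D3:**
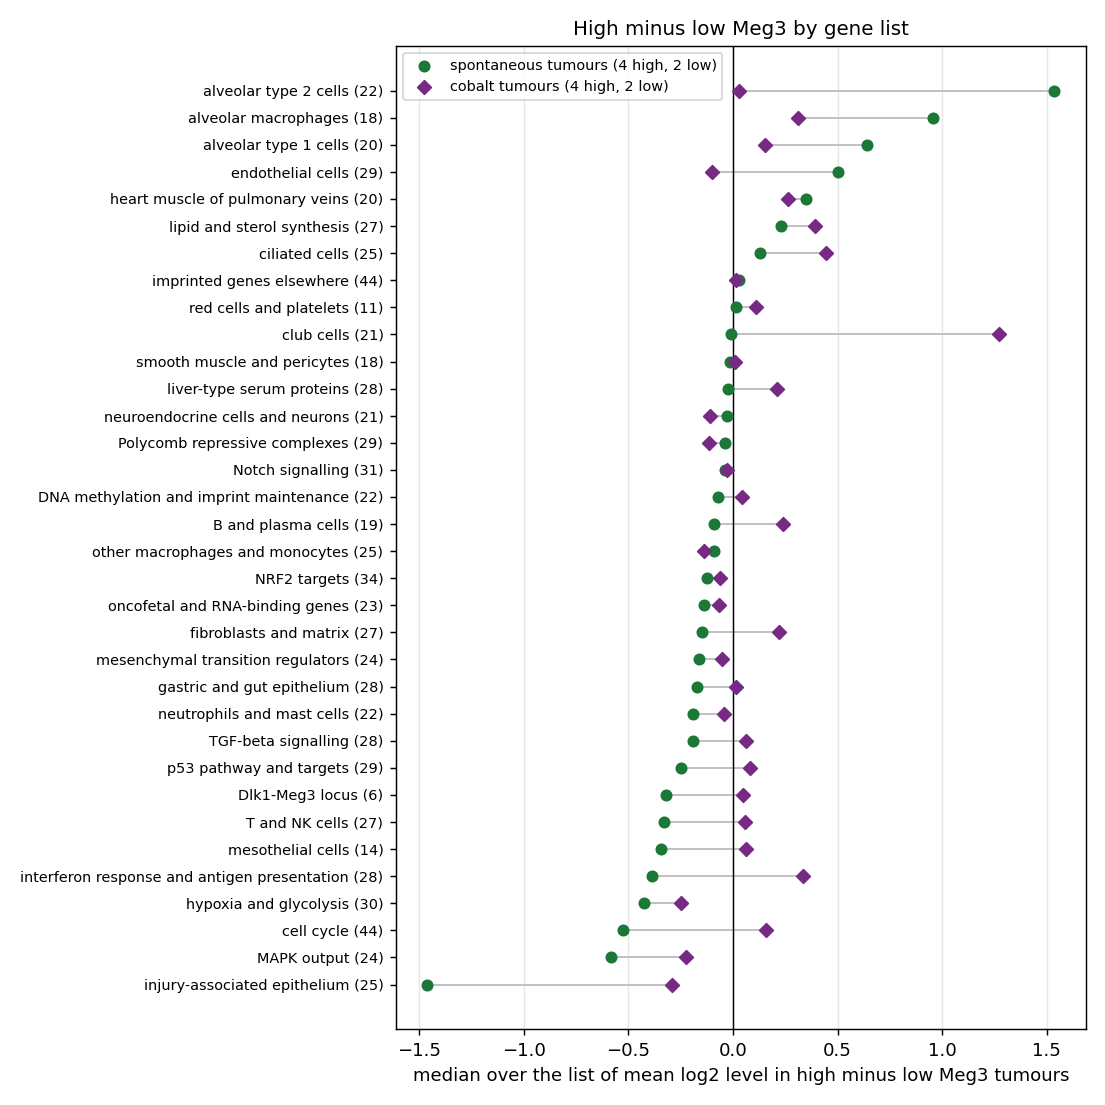
Median over each gene list of the mean log2 level in high minus low Meg3 tumours, for spontaneous (circles) and cobalt tumours (diamonds), 4 high and 2 low each; the number of genes measured is in brackets. Alveolar type 2 markers are at 1.53 in spontaneous and 0.03 in cobalt tumours and injury-associated epithelium at -1.46 and -0.29.

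The difference between high and low Meg3 tumours was not the same in the 2 tumour groups. Testing that directly, as the difference in cobalt minus the difference in spontaneous tumours, gave 88 genes at a limma adjusted p under 0.05 (0.484%), 46 positive (0.253%) and 42 negative (0.231%), with 1987 at an unadjusted p under 0.05. In 87 of the 88 genes the difference was larger in size within spontaneous tumours. The share of all genes tested with a larger difference there was not counted. Low spontaneous tumours 2 and 6 were both above the other 10 tumours in 45 of the 88 and both below them in 41, beside 7.03% and 5.25% of all genes. The exceptions were Gkn1 and Ptpdc1. Low cobalt tumours 2 and 4 were both above the other 10 tumours in 8 of the 88 and both below in 3, beside 2.49% and 1.51% of all genes. The 88 were picked by a test on these same arrays, which favours genes where the low tumours of a group stand apart. These counts are therefore a description.

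Within spontaneous tumours, a comparison added after the data were seen with the spread taken from all 12 tumours, 289 genes were higher (1.59%) and 385 lower (2.12%) with high Meg3. Within cobalt tumours 0 were higher and 1 was lower (0.0055%), with 747 at an unadjusted p under 0.05. Leaving out 1 tumour moved the 88 to between 22 and 152. It was 32, 28, 37 and 46 without spontaneous tumours 1, 3, 4 and 5, 148 and 152 without the low spontaneous tumours 2 and 6, 22 and 26 without the low cobalt tumours 2 and 4, and 72, 47, 57 and 100 without cobalt tumours 1, 3, 5 and 6. With Y-linked RNA as a covariate it was 32, all among the 88, and with the normal lung marker mean 121, of which 83 were. With the threshold at 10, which leaves spontaneous tumour 2 as the 1 low spontaneous tumour, 33 genes were called and 0 of them were among the 88. With the Meg3 level as a number in place of the division 16 were called, 8 of them among the 88.

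**Figure D4:**
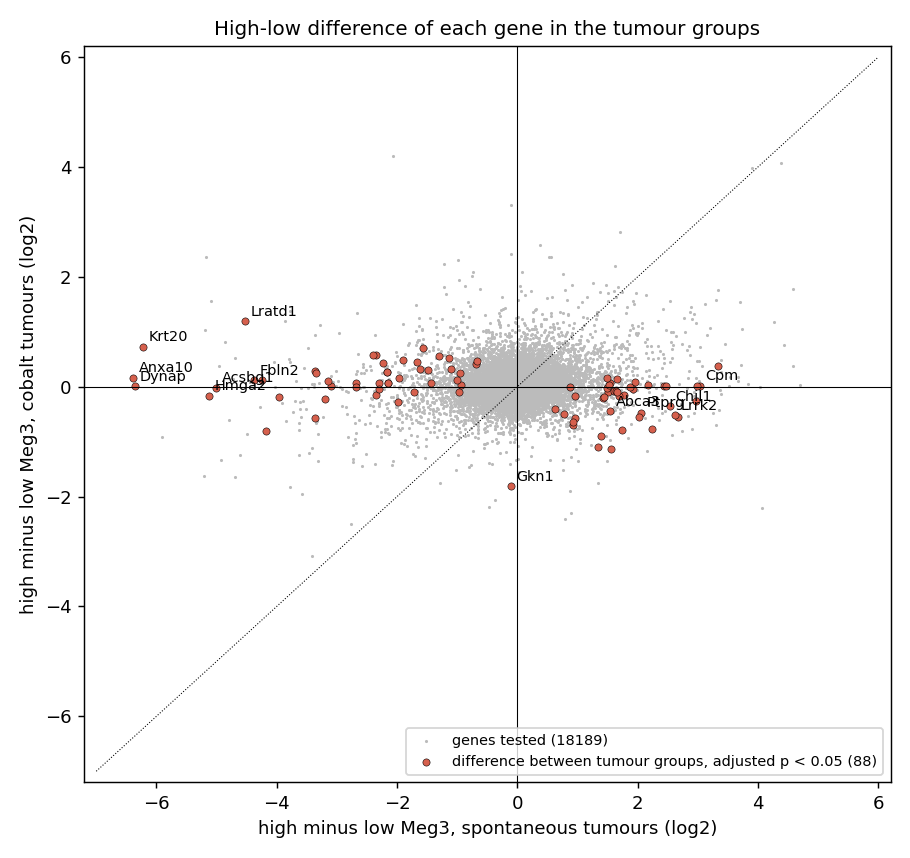
For each of 18189 genes, the mean log2 level in high minus low Meg3 tumours within spontaneous (horizontal) and within cobalt tumours (vertical); the 88 genes whose difference differed between the groups are in red and the dotted line marks equal differences. In 87 of the 88 red points the difference is larger in size within spontaneous tumours, and Gkn1, near the vertical axis, is the exception. The same share over all genes was not counted.

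Genes that were far higher in the low spontaneous tumours than anywhere else made up much of the positive side. Hmga2, a chromatin protein of embryonic tissue, read 11.41 and 11.09 in spontaneous tumours 2 and 6 and 5.74, 6.12, 6.56 and 6.09 in the high spontaneous tumours. In cobalt tumours it read 6.94 and 6.25 in the low and 6.19, 6.15, 7.12 and 6.25 in the high ones, and control lung averaged 5.93 ± 0.11 (SD, n = 6). Within spontaneous tumours the difference was -5.12 on the log2 scale, from a level in the high tumours near or below the array medians of 6.32 to 6.45, and the difference between tumour groups was 4.96 ± 0.45 (SE), at an adjusted p of 0.00212. Fbln2, an extracellular matrix protein, read 10.16 and 11.21 in the same 2 tumours and 5.95 to 7.13 in all others, a log2 difference of -4.38 within spontaneous tumours and a difference between groups of 4.50 ± 0.47 (SE), adjusted p 0.00363. Each of these calls held with any 1 tumour left out.

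Of 28 measured genes of gastric and gut epithelium, 3 were called in this test (10.7% beside 0.484% of all genes), Krt20 and Anxa10 positive and Gkn1 negative, and the list's median difference was 0.16. Both low spontaneous tumours were above the other 10 tumours in 3 of the 28 and below them in 1, beside 7.03% and 5.25% of all genes. All 3 called genes are among the 6064 genes with the lowest mean level. Krt20, a keratin of intestine and stomach, and Anxa10, a gastric annexin, were also high in 1 further tumour. Krt20 read 11.16 and 11.26 in spontaneous tumours 2 and 6, 8.59 in high cobalt tumour 5 and 4.76 to 5.39 in the other tumours. Anxa10 read 11.54 and 10.28, 7.38 in cobalt tumour 5 and 4.36 to 5.93 elsewhere. The differences between groups were 6.95 ± 1.18 (SE) and 6.54 ± 1.06 (SE), with limma adjusted p values of 0.0368 and 0.0307. The Krt20 call was lost when any 1 of spontaneous tumours 1 to 6 or cobalt tumours 1, 2, 3 or 4 was left out, with adjusted p values of 0.052 to 0.167. The Anxa10 call was lost without any 1 of spontaneous tumours 1 to 5 or cobalt tumours 1, 2 or 4, at 0.052 to 0.154.

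The positive side also held genes with other roles. The activin subunit Inhba read 9.35 and 9.42 in spontaneous tumours 2 and 6 against 6.81 to 7.86 in the others, and its difference between groups was 2.36 ± 0.35 (SE), adjusted p 0.0255. The potassium channel Kcnn4, the kinase Ikbke, the MAP kinase phosphatase Dusp10 and the protease Plat, tissue plasminogen activator, had differences of 3.60 ± 0.40, 2.68 ± 0.29, 2.43 ± 0.28 and 2.67 ± 0.40 (SE). Kcnn4, Ikbke and Dusp10 stayed called with any 1 tumour left out. Inhba lost its call without any 1 of spontaneous tumours 1, 3, 4 and 5 or cobalt tumours 2 and 4, and Plat without any 1 of spontaneous tumours 1, 2 and 5 or cobalt tumours 2, 3 and 4. Jpt1, the cytoskeletal gene Septin6 and Oaf followed, at 1.86 ± 0.18, 2.38 ± 0.32 and 2.22 ± 0.25 (SE), and of these only Septin6 lost its call with 1 tumour left out, without cobalt tumour 2 or 4. With the mean of all their probe sets, Inhba was at 0.99 and Septin6 at 1.10. Both then lost their calls, at limma adjusted p values of 0.0866 and 0.0609.

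Alveolar type 2 markers made up 7 of the 42 negative genes, with 7 of 22 measured markers called (31.8% beside 0.484% of all genes tested) and all 7 negative. The 7 were Chil1, Abca3, Sftpa1, Slc34a2, Etv5, Cxcl15 and Lpcat1. Both low spontaneous tumours lay below the other 10 tumours in 15 of the 22 markers, beside 5.25% of all genes. Abca3, the lipid transporter that fills lamellar bodies with surfactant lipid, read 11.11 and 11.23 in spontaneous tumours 2 and 6 and 12.63, 12.74, 12.86 and 12.63 in the high spontaneous tumours. In cobalt tumours it read 12.84 and 12.90 in the low and 12.55, 12.47, 12.13 and 12.53 in the high ones. Both low spontaneous tumours lay just below every control (11.43 ± 0.14, SD, n = 6), and the difference between groups was -1.99 ± 0.19 (SE), adjusted p 0.00243.

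Sftpa1, surfactant protein A, read 13.20 and 12.93 in spontaneous tumours 2 and 6 and 14.39 to 14.88 in all other tumours, with control lung at 14.14 ± 0.09 (SD, n = 6). Both low spontaneous tumours lay below every control, and the difference between groups was -1.72 ± 0.19 (SE), adjusted p 0.00442. Chil1, a chitinase-like secreted protein, read 11.49 and 11.39 against 12.97 to 14.17 in the other tumours, and within spontaneous tumours it was 5.78-fold higher with high Meg3. Its difference between groups was -2.89 ± 0.25 (SE), adjusted p 0.00178. These 3 calls held with any 1 tumour left out. The phosphate transporter Slc34a2 (-1.49 ± 0.19, SE), the transcription factor Etv5 (-2.41 ± 0.33, SE), the lung chemokine Cxcl15 (-1.52 ± 0.23, SE) and the phospholipid enzyme Lpcat1 (-1.48 ± 0.24, SE) all lost their calls without cobalt tumour 2. Slc34a2 also did without cobalt tumour 4, and Cxcl15 and Lpcat1 without 8 and 9 of the 12 tumours in turn. With the mean of all its probe sets Lpcat1 was at -1.03 and lost its call, at a limma adjusted p of 0.0866.

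The promoter of Sftpa1 is shown as an alveolar type 2 gene of this group, from RefSeq on GRCm38.p6, plus strand, chr14:41131538-41131837. Capitals mark its 1 match, on either strand, to CTCAAG, a core recognised by the lung factor NKX2-1, which occurs in 15.9% of the 32851 promoter windows. Of the other called type 2 genes, Cxcl15 also had 1 match in its window. The windows of Abca3, Chil1, Slc34a2, Lpcat1 and Etv5 had 0, so the match is not a shared trait of the called genes.
Sftpa1: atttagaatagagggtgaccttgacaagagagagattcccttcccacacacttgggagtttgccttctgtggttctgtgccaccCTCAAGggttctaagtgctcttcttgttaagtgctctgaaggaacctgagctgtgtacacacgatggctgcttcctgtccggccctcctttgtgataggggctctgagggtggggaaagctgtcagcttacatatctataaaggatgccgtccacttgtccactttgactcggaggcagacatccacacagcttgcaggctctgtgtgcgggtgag

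Nkx2-1 RNA itself read 7.20 and 7.15 in spontaneous tumours 2 and 6 and 7.76 to 8.86 in the other tumours. Its difference between groups was -1.34 ± 0.41 (SE), which did not pass at an adjusted p of 0.248, and within spontaneous tumours its adjusted p was 0.0521.

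Outside the alveolar type 2 list, the negative side held Ptprg, a receptor phosphatase gene, at -2.53 ± 0.26 (SE), adjusted p 0.00316, with 7.03 and 7.61 in spontaneous tumours 2 and 6 and 8.89 to 9.71 elsewhere. Lrrk2, a large kinase also made by alveolar type 2 cells, had a difference of -3.14 ± 0.45 (SE), adjusted p 0.0223, and lost its call without spontaneous tumour 1 or 3 or cobalt tumour 2. Spry1, a feedback inhibitor of growth factor signalling, had one of -1.76 ± 0.31 (SE), adjusted p 0.047, and lost it without any tumour but spontaneous tumour 6 or cobalt tumour 3. In Rmdn2, a microtubule regulator gene, and Tbc1d24, a vesicle traffic gene, low tumours of the 2 groups moved apart: Rmdn2 read 7.88 and 6.91 in low spontaneous and 9.35 and 9.15 in low cobalt tumours, with 8.0 to 8.86 in high tumours, and Tbc1d24 read 7.09 and 7.86, 9.79 and 9.83, and 8.56 to 9.18. Their differences between groups were -2.45 ± 0.31 (SE) and -2.28 ± 0.31 (SE), and both calls were lost without cobalt tumour 2 or 4.

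**Figure D5:**
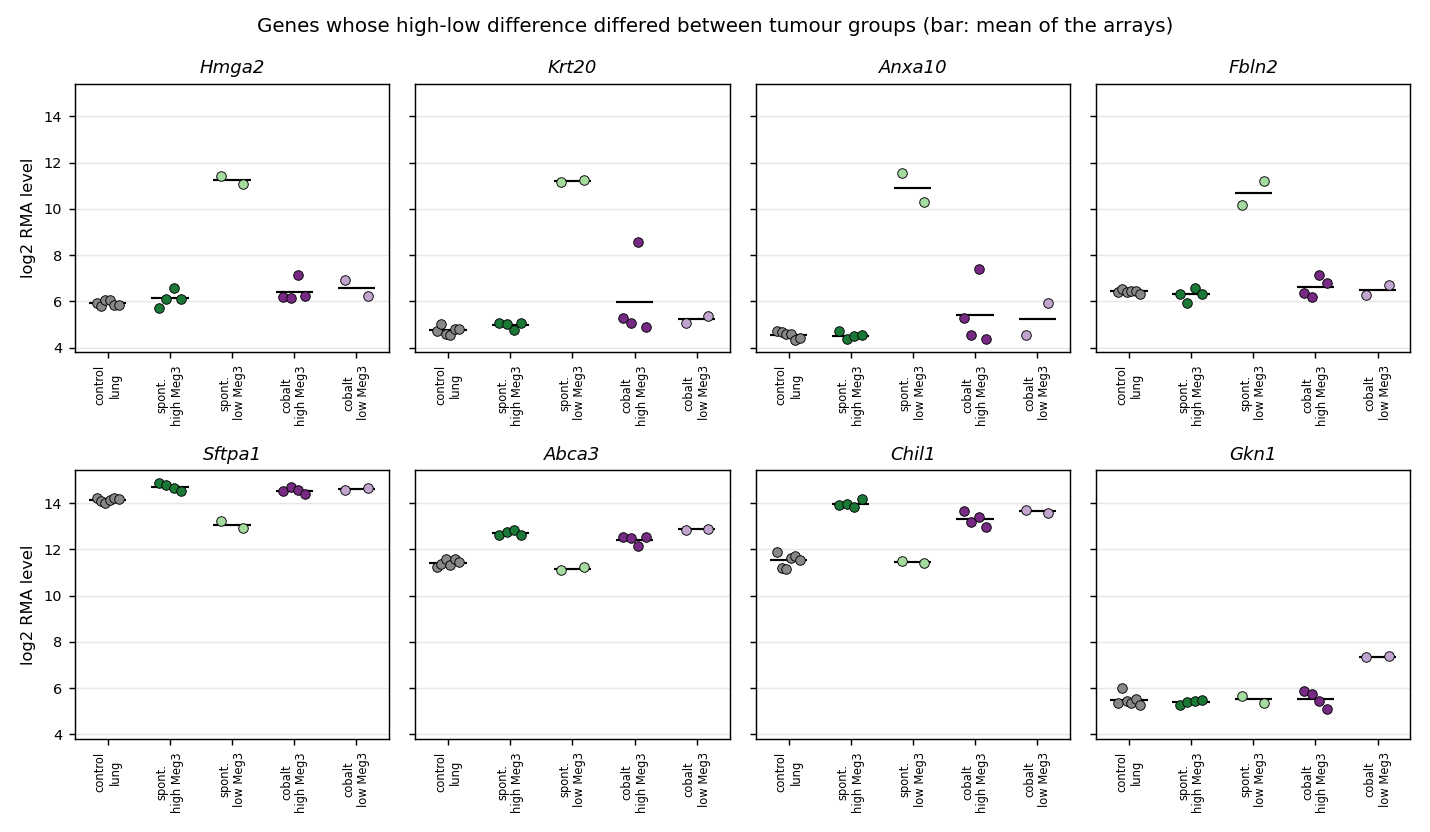
Log2 RMA levels of 8 genes whose difference between high and low Meg3 tumours differed between tumour groups, by array and group, on a common scale; bars are means. Hmga2, Krt20, Anxa10 and Fbln2 are high in low-Meg3 spontaneous tumours, Sftpa1, Abca3 and Chil1 are low there, and Gkn1 is raised in both low-Meg3 cobalt tumours.

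Gkn1, for gastrokine 1 of the stomach lining, was the 1 gene that passed the test within cobalt tumours. It read 7.33 and 7.38 in cobalt tumours 2 and 4 and 5.10 to 5.87 in the other 10 tumours, with control lung at 5.49 ± 0.27 (SD, n = 6). Within cobalt tumours it was lower with high Meg3 by 1.81 on the log2 scale, a difference of -1.81 ± 0.19 (SE), adjusted p 0.0462. Its difference between tumour groups was -1.70 ± 0.27 (SE), adjusted p 0.0303, and this call was lost without any 1 of spontaneous tumours 1, 3, 4, 5 and 6 or cobalt tumours 2, 4 and 5, with values of 0.064 to 0.133. The related Gkn2 was high in all 6 cobalt tumours, at 13.20 to 14.25 in the high and 14.62 and 14.99 in the low ones, so the low tumours were again the highest of their group. Gkn2 differed by -0.92 within cobalt tumours and did not pass the test, and Gkn3 read 8.75 and 7.30 in the low and 6.79 to 8.67 in the high cobalt tumours. The list of 28 gastric and gut genes did not move as a whole: its median difference within cobalt tumours was 0.02. Its mean was 7.15 and 7.53 in low cobalt tumours 2 and 4, inside the 6.55 to 7.86 of the high ones. Both low cobalt tumours lay above the other 10 tumours in 2 of the 28, beside 2.49% of all genes.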

How the data were processed

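RNA of 12 lung tumours and 6 control lungs was measured on 18 Affymetrix arrays, 1 per sample, grouped by title, source and group label. The authors deposited log2 values from RMA, a method named in the submitters' processing notes without version or settings. RMA in its usual form equalises the arrays' distributions, which can hide a shift of all genes. The values, 3.34 to 15.26 with array medians of 6.32 to 6.45, were used as deposited. Precision is limited by how many arrays there are, and all 18 columns of values entered.

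Of 45101 probe sets, the platform annotation paired 34945 with 1 symbol, 932 with several and 9160 with none, and 64 were controls; 34741 symbols matched RefSeq genes of GRCm38.p6 by Entrez identifier. A gene was represented by its probe set with the highest mean, giving 18193 genes, of which 4 locus genes were set aside.

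High and low Meg3 tumours were compared by limma 3.58.1 in R 4.3.3, using lmFit and eBayes with tumour group as covariate, two-sided, with Benjamini-Hochberg adjustment over 18189 genes at 0.05; a second fit tested the interaction with tumour group. Both were tested on simulated data. The members, the 34 gene lists (925 entries, 78 without a gene here) and the tests were chosen with earlier results of these data known, and lists are described by counts and medians. Named genes were the 12 largest non-overlapping changes each way past the threshold (with under 5, the 5 smallest p), up to 3 called members a list each way, a fixed set including imprinted and lung lineage genes, and, in the interaction, called list members and the smallest p. Others, including list members given at an unadjusted p, were chosen after their values were seen. Alternatives covered the Meg3 threshold, probe set choice, normalization, filtering, eBayes options, array weights, covariates, the replicate block and each array left out. Scanner files were not used here.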

Additional observations from a re-analysis of the deposited data

Results flagged for a closer look

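Among 207 groups of samples examined, 12 had a lowest or highest sample far from the rest, where chance gives about 1 in 20 groups. In the high-Meg3 tumours, cobalt tumour 5 accounted for 6 of the 12: it was the highest for Inhba (7.86), Anxa10 (7.38) and Krt20 (8.59) and the lowest for Lpcat1 (13.02), Ptprg (8.89) and Sec14l4 (8.90). Cobalt tumour 1 was the lowest for Scgb1a1 (9.97). In the low-Meg3 tumours, cobalt tumour 4 was the highest for Ss18l2 (8.93), within groups that spanned little, and spontaneous tumour 6 the highest for Suox (10.48). Control 1 stood apart in control lung for Cnnm4 (8.42, highest), Snx25 (9.47, lowest) and Upp1 (10.21, highest).

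In 27 named genes the difference between high and low Meg3 tumours itself differed between cobalt and spontaneous tumours by limma's interaction test. Given as cobalt minus spontaneous on the log2 scale, the positive values were Krt20 6.95, Anxa10 6.54, Hmga2 4.96, Fbln2 4.50, Kcnn4 3.60, Ikbke 2.68, Plat 2.67, Dusp10 2.43, Septin6 2.38, Inhba 2.36, Oaf 2.22, Cnnm4 2.19 and Jpt1 1.86. The negative values were Lrrk2 -3.14, Chil1 -2.89, Ptprg -2.53, Rmdn2 -2.45, Etv5 -2.41, Tbc1d24 -2.28, Abca3 -1.99, Snx25 -1.88, Spry1 -1.76, Sftpa1 -1.72, Gkn1 -1.70, Cxcl15 -1.52, Slc34a2 -1.49 and Lpcat1 -1.48.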

How the results depend on the processing

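Against 0 genes higher and 0 lower with high Meg3, the counts were 1 and 3 with the threshold at 10, 42 and 61 in a fit of all 18 arrays and 0 to 12 and 0 to 16 with 1 tumour left out. In comparisons chosen after seeing the data they were 272 and 353 without cobalt tumours 2 and 4, 289 and 385 within spontaneous tumours and 0 and 1 within cobalt tumours. The 88 genes of the difference between tumour groups became 33 at threshold 10 (0 shared), 16 with the Meg3 level as a number (8 shared), 367 with 18 arrays (87 shared), 32 with the Y-linked covariate (32 shared), 54 without cobalt tumour 6 and spontaneous tumour 4 (41 shared, chosen after seeing the data) and 22 to 152 with 1 tumour left out. With the replicate number as a fixed replicate block 1 gene was called (1 shared), and 86 (81 shared) with it as a random replicate block. Same-numbered tumours correlated at -0.52 to 0.08 in their deviations from a fit of split and tumour group without their interaction. The interaction stays in those deviations, so the correlations cannot decide whether the numbers pair samples. No label gives the mouse behind an array, and the main fits did not pair tumours by number. The split itself kept 0 and 0 under both blocks. Threshold 12 and the second Meg3 probe set gave the same division of all 12 tumours, so these settings could not change a value. For single named genes, no called value changed direction in any setting run: 2444 values kept their side of the threshold, 115 gained a call, 185 lost it, and 58 uncalled values changed sign by over 1 SE or were on another scale. The 2444 include values that were uncalled throughout. No gene was called in the main comparison of high with low, so the lost calls are those of the difference between tumour groups. Those calls held in 9 of 27 settings for Spry1, the fewest, 11 of 26 for Krt20, and 25 of 27 for Ptprg, the most. The difference between groups could not be fitted without both low tumours of a group or without the group term. Dim genes are limited by signal over background, which is unknown here: 19 of the 88 were among the 6064 dimmest genes. The cause of these shifts was not tested.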
